A study of Mus musculus with 19 samples.

Results

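The transcripts described are those of 9 mouse genes, 6 that encode factors secreted by fat (*Adipoq*, *Lep*, *Retn*, *Cfd*, *Rbp4* and *Nampt*) and 3 that encode receptors for such factors (*Adipor1*, *Adipor2* and *Lepr*). The rule for them uses gene symbols alone, although the list was drawn up with earlier results of these data known, and they are 9 of the 55740 genes listed in the RNA-Seq tables of 7 tissues, brown adipose tissue (BAT) and inguinal white adipose tissue (iWAT, a subcutaneous fat depot). The study asked how Musclin, a peptide secreted by skeletal muscle and encoded by *Ostn*, acts on fat. The 7 tissues are the heart, brain, liver, small intestine, tibialis anterior (TA) muscle and both brown and white adipose tissue of C57BL/6J wild-type (WT) male mice, with 1 library each, and neither their age nor the depot of the white fat was given for these libraries. iWAT and BAT were taken from male, chow-fed mice of both genotypes (WT and MCK-Musclin), aged 5 months, that were kept at 8 °C for 1 week, with 3 libraries per genotype and tissue. MCK-Musclin mice carry the Musclin coding sequence under the promoter of muscle creatine kinase, a skeletal muscle gene, on a C57BL/6J background, and which of the founder lines was sequenced is not stated. Cold exposure was shared by both genotypes, so the genotype effect at room temperature was not measured in these libraries. The labels only number the replicates, and by the study's own account the animals within a genotype or treatment were independent. Whether iWAT and BAT libraries of the same number came from 1 mouse is not stated.

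Adipokines are proteins that fat releases into the blood to inform other organs about energy stores. Leptin, the product of *Lep*, signals fat mass to the brain through the receptor encoded by *Lepr*, and adiponectin, the product of *Adipoq*, acts on liver and muscle through the receptors encoded by *Adipor1* and *Adipor2*. Resistin (*Retn*), adipsin (*Cfd*, the factor D protease of the alternative complement pathway), retinol-binding protein (*Rbp4*, the carrier of vitamin A in plasma) and NAMPT (*Nampt*, an enzyme of NAD synthesis that is also found outside cells as visfatin) are released by fat to different degrees.

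All values are FPKM, the fragments counted for a gene relative to its exon length and to the size of the library, so levels can be compared between genes. The FPKM of a library summed to between 393682 and 711437 in the 7 tissues, to between 676362 and 720852 in BAT and to between 364710 and 384104 in iWAT. Genes encoded by mitochondrial DNA took 50.6% to 52.0% of the sum in BAT and 13.3% to 53.8% in the 7 tissues, and the iWAT table lists none, so FPKM is on a different base in each table. Summed defining markers matched the labels in the 7 tissues. Hepatocyte markers reached 42763 in liver, heart muscle markers 32121 in heart and skeletal muscle markers 140756 in TA muscle. Brown and beige fat markers were at 3130 in brown and 15.6 in white adipose tissue, but also at 668 in heart and 327 in TA muscle. Skeletal muscle markers were also at 567 in brown and 386 in white adipose tissue. *Ostn*, the transgene, was listed at 0 in each WT library of BAT and at 37.9, 31.6 and 30.3 in the MCK-Musclin libraries. In iWAT *Ostn* was at 0, 0 and 0.225 in WT and at 0, 5.17 and 4.21 in MCK-Musclin, so the MCK-Musclin library with replicate number 1 was listed at 0. The summed skeletal muscle markers of that library were 11.2, against 161 and 191 in the other two.

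The transcripts of *Adipoq*, *Lep*, *Retn* and *Cfd* were almost confined to fat over the 7 tissues, and the 250 bases upstream of their RefSeq start sites are shown here to let their promoters be compared. This grouping was made after the levels were seen. The windows lie directly before the start site on the plus strand of GRCm38.p6, at chr16:23146286-23146535 for *Adipoq*, chr6:29059971-29060220 for *Lep*, chr8:3655520-3655769 for *Retn* and chr10:79890603-79890852 for *Cfd*. Capitals mark matches, on either strand, to a CCAAT box (CCAAT), a C/EBP core (TTNNGNAA) or a GC box (GGGCGG).
Adipoq: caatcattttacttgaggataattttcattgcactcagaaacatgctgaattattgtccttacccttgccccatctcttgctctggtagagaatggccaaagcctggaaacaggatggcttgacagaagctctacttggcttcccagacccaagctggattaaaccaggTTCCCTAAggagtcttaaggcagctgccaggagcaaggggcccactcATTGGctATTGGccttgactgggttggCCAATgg
Lep: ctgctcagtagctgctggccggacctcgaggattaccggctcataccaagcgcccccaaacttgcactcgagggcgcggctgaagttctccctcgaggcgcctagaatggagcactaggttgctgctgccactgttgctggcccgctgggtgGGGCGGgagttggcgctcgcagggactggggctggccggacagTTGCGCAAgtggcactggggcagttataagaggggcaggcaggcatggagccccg
Retn: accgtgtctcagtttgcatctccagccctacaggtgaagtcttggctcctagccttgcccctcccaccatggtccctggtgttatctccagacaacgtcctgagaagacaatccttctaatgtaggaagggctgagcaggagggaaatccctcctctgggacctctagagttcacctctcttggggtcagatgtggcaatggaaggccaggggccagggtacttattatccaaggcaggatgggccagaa
Cfd: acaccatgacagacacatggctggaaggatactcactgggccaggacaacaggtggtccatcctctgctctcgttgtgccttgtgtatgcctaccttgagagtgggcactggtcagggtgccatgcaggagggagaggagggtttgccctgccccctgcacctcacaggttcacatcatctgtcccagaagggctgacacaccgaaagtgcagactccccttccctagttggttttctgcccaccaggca
The windows differed from each other in base composition. That of *Adipoq* held 0 CpG dinucleotides, those of *Retn* and *Cfd* held 2 each and that of *Lep* held 16, against a median of 6 over the 32851 windows of the RefSeq promoter table. The *Adipoq* window held 3 CCAAT boxes, at -34, -27 and -7 from the start site, and a C/EBP core at -81. In the *Lep* window a C/EBP core began at -55 and a GC box at -98. The windows of *Retn* and *Cfd* held no match to these motifs, to TATAAA, to the E-box CACGTG or to the direct repeat AGGTCANAGGTCA that PPAR-RXR dimers can bind. Matches to CCAAT, TTNNGNAA and GGGCGG are common by themselves, found in 33.8%, 36.8% and 32.7% of all windows of this length. TATAAA was found in 12.4%, CACGTG in 6.02% and the direct repeat in 0.0335% of them, so nearly all windows lack the direct repeat. *Nampt* and *Adipor2*, which were found in all 7 tissues, had 27 CpG dinucleotides each in their windows, and the 2 *Adipor1* start sites had 15 and 33. The *Rbp4* start sites had 5 and 28, and the 2 start sites of *Lepr* had 10 each.

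*Cfd* was the most abundant of the 9 transcripts in white adipose tissue, where it stood at 3090 FPKM and ranked 7th among genes encoded in the nucleus. It was at 638 in brown adipose tissue, 2.08 in TA muscle, 0.800 in small intestine and 0.423 in liver, and was listed at 0 in heart and brain. *Adipoq* stood at 1699 in white and 534 in brown adipose tissue and at no more than 0.714 elsewhere, and it ranked 14th in white adipose tissue. Both genes were thus highest in white fat, with *Cfd* 4.85 times and *Adipoq* 3.18 times its level in brown fat. *Lep* was at 567 in white and 73.2 in brown adipose tissue, a ratio of 7.75, and between 0.0174 in heart and 0.239 in TA muscle in the other 5 tissues. *Retn* had the steepest step between the fat depots, with 312 in white and 7.72 in brown adipose tissue, a ratio of 40.4, and it was listed at 0.494 in small intestine and at 0 in the remaining 4 tissues. White and brown fat together held between 99.8% and 99.9% of the FPKM of each of these 4 genes summed over the 7 tissues. With libraries scaled by median ratios the ratios of white to brown fat were smaller, 3.05 for *Cfd*, 2.01 for *Adipoq*, 4.88 for *Lep* and 25.4 for *Retn*. There was no replicate of any tissue, so these ratios have no error and no test.

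*Rbp4* was highest in liver, with white fat next. It stood at 2033 in liver and 221 in white adipose tissue, a ratio of 9.18 in FPKM and of 18.8 under median-ratio scaling, followed by 8.38 in brown adipose tissue, 4.21 in brain, 3.44 in TA muscle, 2.20 in small intestine and 0.647 in heart. *Nampt* was found in every tissue, from 11.6 in brain to 59.2 in brown fat, with 39.6 in heart, 35.5 in white adipose tissue, 27.0 in liver, 26.1 in small intestine and 26.0 in TA muscle. Small intestine, TA muscle and liver could hardly be ordered by *Nampt* in FPKM, and the step from brown adipose tissue to heart was 1.5-fold. Under median-ratio scaling this step was 1.12-fold, and white adipose tissue came after TA muscle and liver.

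The receptors had another distribution. *Adipor1* was highest in TA muscle at 82.9, ahead of white adipose tissue (49.0), small intestine (46.7), heart (45.0), brown adipose tissue (40.9), liver (30.7) and brain (17.4). TA muscle led and brain came last under the other scalings too, but heart came next to TA muscle under both, and median-ratio scaling put white adipose tissue ahead of brain alone. *Adipor2* was at 135 in white adipose tissue, 110.5 in brown adipose tissue, 108 in liver, 63.6 in small intestine, 26.5 in TA muscle, 18.7 in heart and 16.0 in brain. White adipose tissue led for *Adipor2* by 1.22-fold with FPKM as deposited, but liver was highest when libraries were scaled by median ratios, so the order of these 3 tissues is not settled. *Lepr* was low in each bulk tissue, with 2.32 in small intestine, 1.12 in white adipose tissue, 1.02 in heart, 0.862 in brain, 0.365 in liver, 0.123 in TA muscle and 0.0390 in brown adipose tissue. Small intestine led for *Lepr* by 2.06-fold, and by 1.2-fold over heart under median-ratio scaling. FPKM per gene adds up the long, signaling form of the leptin receptor and its short forms. In bulk samples fewer cells of a type and less RNA per cell cannot be told apart.

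**Figure D1:**
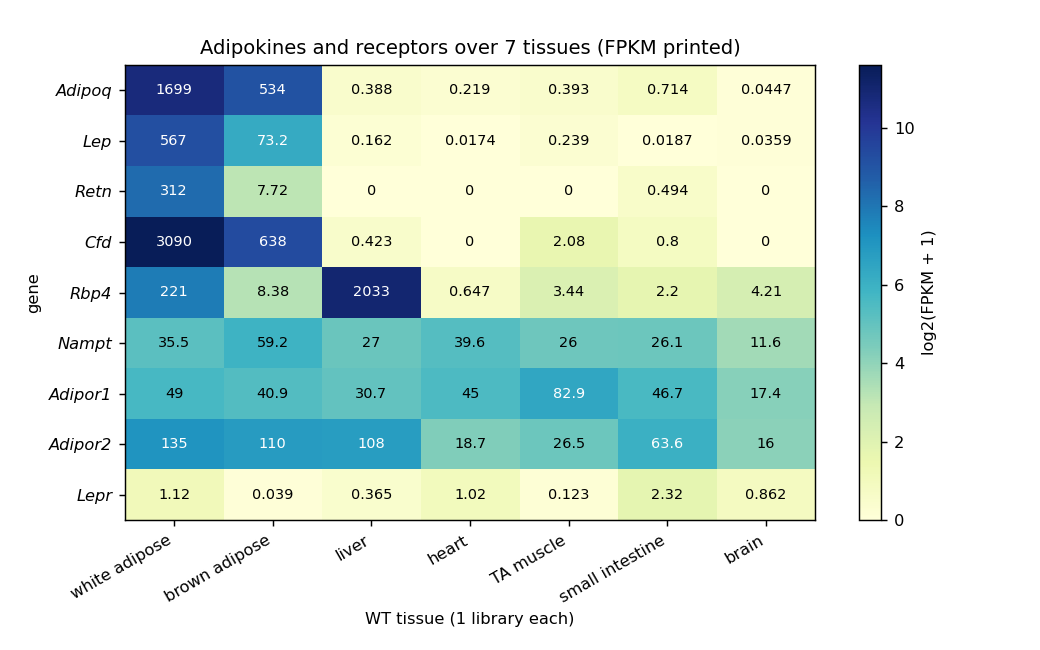
FPKM of the 9 genes (rows) in 7 WT tissues (columns, 1 library each), with the FPKM printed in each cell and the colour on the log2(FPKM + 1) scale. *Adipoq*, *Lep* and *Cfd* are dark in white and brown adipose tissue alone, and *Retn* is dark in white adipose tissue alone, with 7.72 in brown. *Rbp4* is darkest in liver at 2033, and *Nampt* and the adiponectin receptors are spread over all 7 tissues.

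The pair of adiponectin receptors changed rank between tissues. The ratio of *Adipor2* to *Adipor1* FPKM was 0.320 in TA muscle, 0.417 in heart and 0.922 in brain, and it was 1.36 in small intestine, 2.70 in brown adipose tissue, 2.75 in white adipose tissue and 3.52 in liver. Thus *Adipor1* exceeded *Adipor2* in the 2 striated muscles and slightly in brain, and *Adipor2* exceeded *Adipor1* in the other 4 tissues. A ratio within a library does not depend on how libraries are scaled. In cold-exposed iWAT the ratio was 2.60, 3.83 and 2.69 in WT and 2.81, 3.12 and 3.65 in MCK-Musclin mice, and in BAT it was 2.69, 3.66 and 3.24 in WT and 2.78, 2.39 and 2.39 in MCK-Musclin mice. The genotypes overlapped in both fat depots. Exact two-sided permutation tests gave p = 0.7 in iWAT and p = 0.2 in BAT, each with an adjusted p of 0.7 over the 6 ratio comparisons made, and with 3 libraries against 3 the smallest possible p is 0.1.

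**Figure D2:**
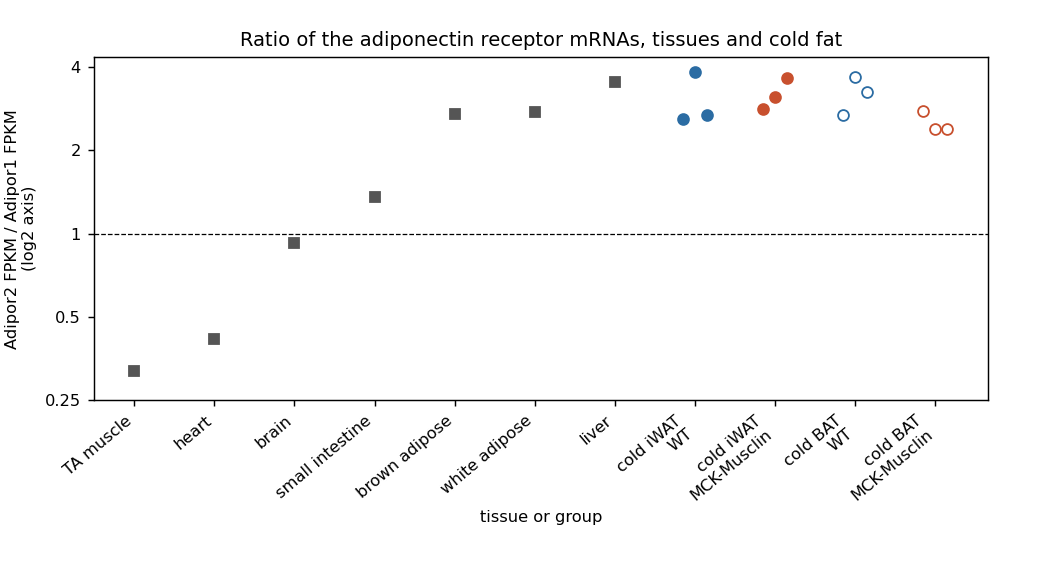
Ratio of *Adipor2* to *Adipor1* FPKM (log2 axis) in the 7 WT tissues (grey squares, 1 library each) and in the 12 libraries of cold-exposed iWAT (filled circles) and BAT (open circles), blue for WT and red for MCK-Musclin. The ratio runs from 0.320 in TA muscle to 3.52 in liver, and all 12 fat libraries lie between 2.39 and 3.83.

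Other genes followed the same tissue profiles. Over log2(FPKM + 1) in the 7 tissues, and among 10376 genes with at least 10 FPKM in a tissue, the profile of *Adipoq* was most like those of *Plin1* (r = 0.999), which encodes the lipid droplet coat perilipin, *Irs3* and *Trarg1*. *Cfd* had *Irs3*, *Dolk* and *Plin1* as its nearest profiles, and *Lep* had *Dolk*, *Glb1l2* and *Hcar1*, the lactate receptor of adipocytes. Nearest to *Retn* were *Gm36860*, *Mc2r*, which encodes the corticotropin receptor, and *Serpina3c*. These correlations rest on 7 points of which 2 are fat, and they describe a shared profile only. For *Rbp4* the nearest were *Vnn3*, *Gm18840* and *Hsd11b1* (r = 0.985 for the last, an enzyme that makes active glucocorticoid), and for *Nampt* they were *Etfa* (r = 0.985), *Clpx* and *Decr1*, which encode mitochondrial proteins. *Adipor1* was most like *Faf1* (r = 0.962), *Tfeb* and *Asnsd1*, *Adipor2* like *Vps25* (r = 0.985), *Pck1* and *H2-T22*, and *Lepr* like *Ezr* (r = 0.976), *Zdhhc13* and *Lrrc1*.

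The cold-exposed mice allowed the expression of these genes in fat to be compared between MCK-Musclin and WT mice. *Ostn* transcripts were themselves found in fat libraries of MCK-Musclin mice, so genotypes are compared, and the source of Musclin was not tested. No member passed the cutoff of the study in iWAT, which asks for p under 0.05 before adjustment and a log2 fold change beyond 0.5, among 9 members tested, against 5.94% of the 12197 genes tested. The test was limma on log2(FPKM + 1) with Benjamini-Hochberg adjustment over all genes of the table. No member had an adjusted p under 0.05 in iWAT, where 0% of all genes did, and 1 member had an unadjusted p under 0.05, against 16.5% of all genes. The WT and MCK-Musclin libraries overlapped for all 9 members in iWAT, whereas 23.3% of all genes had groups with no overlap. Without MCK-Musclin replicate 1, in which *Ostn* was listed at 0, the number of members past the cutoff in iWAT was also 0. In BAT 8 members could be tested, because *Lepr* was under a mean of 1 FPKM, and 1 of them, *Adipor2*, passed the cutoff (a log2 fold change beyond 0.3 there), against 4% of the 10893 genes tested. It did not pass after adjustment, which left 0.00918% of all genes in BAT, namely *Ostn* alone. It was also the only member with an unadjusted p under 0.05, against 4.89% of all genes, and all 8 members had overlapping groups, whereas 10% of all genes did not.

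Among the secreted factors in iWAT, *Nampt* came nearest to a difference. *Nampt* was at 45.0, 37.5 and 49.2 FPKM in WT and at 38.4, 32.8 and 35.3 in MCK-Musclin iWAT, a mean of 43.9 ± 5.91 against 35.5 ± 2.79 (SD, n = 3 each). The MCK-Musclin values were low, but the highest of them lay above the lowest WT value. The log2 fold change was -0.29 ± 0.12 (SE), with an unadjusted p of 0.0487 and a limma adjusted p of 0.30. An exact permutation test on log2(FPKM + 1) gave p = 0.2. Under the alternative settings with all libraries kept, the log2 fold change ran from -0.37 to -0.05. The unadjusted limma p ran from 0.0214 to 0.772 there, so the size of the *Nampt* difference depends on the setting. In BAT *Nampt* was higher than in iWAT in FPKM, at 55.5, 66.9 and 61.0 in WT and at 55.5, 55.0 and 56.2 in MCK-Musclin mice, with a log2 fold change of -0.13 ± 0.09 and an adjusted p of 0.968.

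*Adipoq* varied little between libraries. It was at 998, 1099 and 1068 in WT and at 849, 980.3 and 1009.9 in MCK-Musclin iWAT, a log2 fold change of -0.16 ± 0.12 with an adjusted p of 0.532. In BAT it was at 283, 293 and 325 in WT and at 306, 289 and 288 in MCK-Musclin mice, a log2 fold change of -0.03 ± 0.08 with an adjusted p of 0.988. The variation within a genotype was 7.28% of the mean in iWAT and 5.73% in BAT, below the median gene at 13.5% and 14.7%. The genotypes overlapped in both depots.

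*Lep* was the most variable of the members that passed the filter on low values in each depot. It was at 179.7, 163 and 151 in WT and at 68.9, 234 and 117 in MCK-Musclin iWAT, so that both the highest and the lowest of the 6 libraries were MCK-Musclin. Within-genotype variation of *Lep* was 43.3% of the mean in iWAT, more than for 96.3% of genes, and 59.4% in BAT, more than for 98.0% of genes. The log2 fold change in iWAT was -0.41 ± 0.39 with a limma adjusted p of 0.638. In BAT *Lep* was at 6.24, 2.28 and 6.44 in WT and at 2.42, 5.74 and 1.48 in MCK-Musclin mice, with a log2 fold change of -0.54 ± 0.43 and an adjusted p of 0.968. The wide error means that a sizeable change in either direction was not detectable with these libraries. Without MCK-Musclin replicate 2 of the depot, the highest library of its group in each, the log2 fold change was -0.86 in iWAT (unadjusted p = 0.00762, adjusted p = 0.254) and -0.95 in BAT (unadjusted p = 0.0438, adjusted p = 0.874). Without MCK-Musclin replicate 1, the library with *Ostn* listed at 0, it was 0.01 in iWAT.

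*Retn* and *Cfd* were abundant and even in iWAT. *Retn* was at 705, 619 and 662 in WT and at 666, 587 and 718 in MCK-Musclin iWAT, a log2 fold change of -0.01 ± 0.12 with an adjusted p of 0.967. *Cfd* was at 2517, 2397 and 2466 in WT and at 2434, 1899 and 2708 in MCK-Musclin iWAT, a log2 fold change of -0.08 ± 0.16 with an adjusted p of 0.828. Both groups overlapped for each gene. In BAT *Retn* was at 29.7, 17.0 and 32.0 in WT and at 28.7, 18.5 and 28.4 in MCK-Musclin mice, and *Cfd* was at 117, 71.7 and 154 in WT and at 142, 74.8 and 137 in MCK-Musclin mice. Both genes were lowest in the same 2 BAT libraries, 1 of each genotype, at 0.662 and 0.719 times the mean of the 6 libraries for *Retn* and at 0.618 and 0.644 times for *Cfd*. In these libraries *Adipoq* was at 0.986 and 0.971 times its mean, and *Lep* was low in the WT library (0.556) and high in the MCK-Musclin library (1.40). Summed general adipocyte markers were 13339 and 12808 there, the lowest of their genotypes, where the other 4 libraries had between 13226 and 14090. By mean log2(FPKM + 1) the same markers were instead highest of their genotypes there. These means were 7.76 against 7.62 and 7.71 in WT, and 7.64 against 7.60 and 7.61 in MCK-Musclin BAT. The part of adipocyte content in the low values was not tested. The genotype effects in BAT were -0.03 ± 0.26 for *Retn* and 0.06 ± 0.33 for *Cfd* on the log2 scale, both with a limma adjusted p of 0.996.

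**Figure D3:**
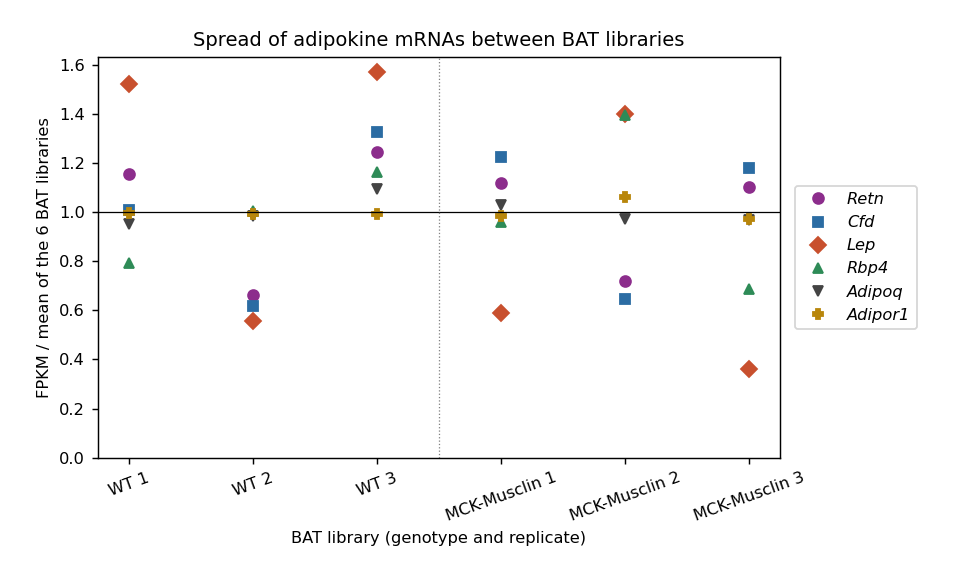
FPKM of 6 of the genes in each BAT library divided by the mean of the 6 BAT libraries, WT to the left and MCK-Musclin to the right of the dotted line. *Retn* and *Cfd* drop together in WT 2 and MCK-Musclin 2, *Lep* ranges from 0.361 to 1.57, and *Adipoq* and *Adipor1* stay close to 1.

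*Rbp4* was at 159, 148 and 128 in WT and at 129.6, 139 and 92.8 in MCK-Musclin iWAT, a log2 fold change of -0.28 ± 0.17 with a limma adjusted p of 0.449. In BAT it was at 38.5, 48.9 and 56.6 in WT and at 46.7, 68.0 and 33.4 in MCK-Musclin mice, a log2 fold change of 0.00 ± 0.25 with an adjusted p of 0.999. The MCK-Musclin library with replicate number 3 was the lowest of all in both depots, and the groups overlapped.

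For the receptors, *Adipor2* in BAT was the single call. It was at 88.8, 121 and 107 in WT and at 90.5, 84.4 and 77.1 in MCK-Musclin BAT, a mean of 105 ± 15.9 against 84.0 ± 6.72 (SD, n = 3 each). The groups overlapped, since WT replicate 1 lay below the highest MCK-Musclin library. The log2 fold change was -0.31 ± 0.13 with an unadjusted p of 0.0398 and a limma adjusted p of 0.968. The exact permutation test on log2(FPKM + 1) gave p = 0.2. Leaving out WT replicate 2, the highest library, gave -0.21 (limma adjusted p = 0.981), and the call was also lost without WT replicate 3 or without MCK-Musclin replicate 2 or 3. It was lost as well with the replicate block (-0.31, limma adjusted p = 0.967), on TPM (-0.30, adjusted p = 0.973), without a trend in eBayes (-0.31, adjusted p = 0.973) and with centring on general adipocyte markers (-0.23, adjusted p = 0.845). Summed skeletal muscle markers were between 859 and 1901 in MCK-Musclin and between 517 and 822 in WT BAT. Of the 11 markers 9 were past the cutoff and higher, against 1.85% of all genes, and none was at 0. TA muscle had less *Adipor2* (26.5 FPKM) than any of these BAT libraries, and the part of muscle RNA in the *Adipor2* values was not tested. In iWAT *Adipor2* was at 92.7, 125 and 117 in WT and at 92.4, 108 and 109.7 in MCK-Musclin mice, with a log2 fold change of -0.10 ± 0.14 and an adjusted p of 0.751.

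*Adipor1* was the steadiest of the members in BAT, with a within-genotype variation of 3.50%, less than that of all but 1.52% of genes. It was at 33.0, 32.9 and 32.9 in WT and at 32.6, 35.3 and 32.2 in MCK-Musclin BAT, a log2 fold change of 0.02 ± 0.08 with a limma adjusted p of 0.996. In iWAT it was at 35.6, 32.5 and 43.5 in WT and at 32.9, 34.6 and 30.1 in MCK-Musclin mice, a log2 fold change of -0.18 ± 0.13 with an adjusted p of 0.513. The high WT iWAT library, replicate 3, also had the highest summed skeletal muscle markers, 4668 against 833 and 11.1 in the other two WT libraries, and TA muscle was the tissue with the most *Adipor1*. Their part in the value was not tested.

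*Lepr* separated the fat depots. It was at 7.92, 4.32 and 4.05 in WT and at 7.21, 5.59 and 9.86 in MCK-Musclin iWAT, and in BAT it was listed at 0, 0 and 0.0681 in WT and at 0.0610, 0.0417 and 0.0466 in MCK-Musclin mice. In iWAT *Lepr* was the only member with a higher mean in MCK-Musclin mice, 7.55 ± 2.16 against 5.43 ± 2.16 (SD, n = 3 each), but the groups overlapped and the log2 fold change was 0.43 ± 0.26 with a limma adjusted p of 0.453. WT replicate 1, the highest WT library for *Lepr*, also had the highest summed B cell markers of WT iWAT (285 against 167 and 146), but in MCK-Musclin iWAT the sums were 320, 425 and 411 for replicates 1 to 3, so that the library with the most B cell markers had the least *Lepr* of its group. All 8 B cell markers and 5 of 8 T cell markers passed the cutoff and were higher in MCK-Musclin iWAT, against 5.04% of all genes, and their part in the *Lepr* values was not tested. Without WT replicate 1 the log2 fold change of *Lepr* was 0.69 (limma adjusted p = 0.183), which passed the cutoff of the study. This was the upper end of the range when 1 library at a time was left out. The lower end was 0.24, and the unadjusted limma p ran from 0.0170 to 0.403. *Leprot*, which encodes a transmembrane protein that influences how much leptin receptor reaches the cell surface, was at 18.0, 17.2 and 16.9 in WT and at 19.8, 19.0 and 22.1 in MCK-Musclin iWAT, so that its groups did not overlap, as for 23.3% of all genes. Its log2 fold change was 0.21 ± 0.10 with a limma adjusted p of 0.326.

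**Figure D4:**
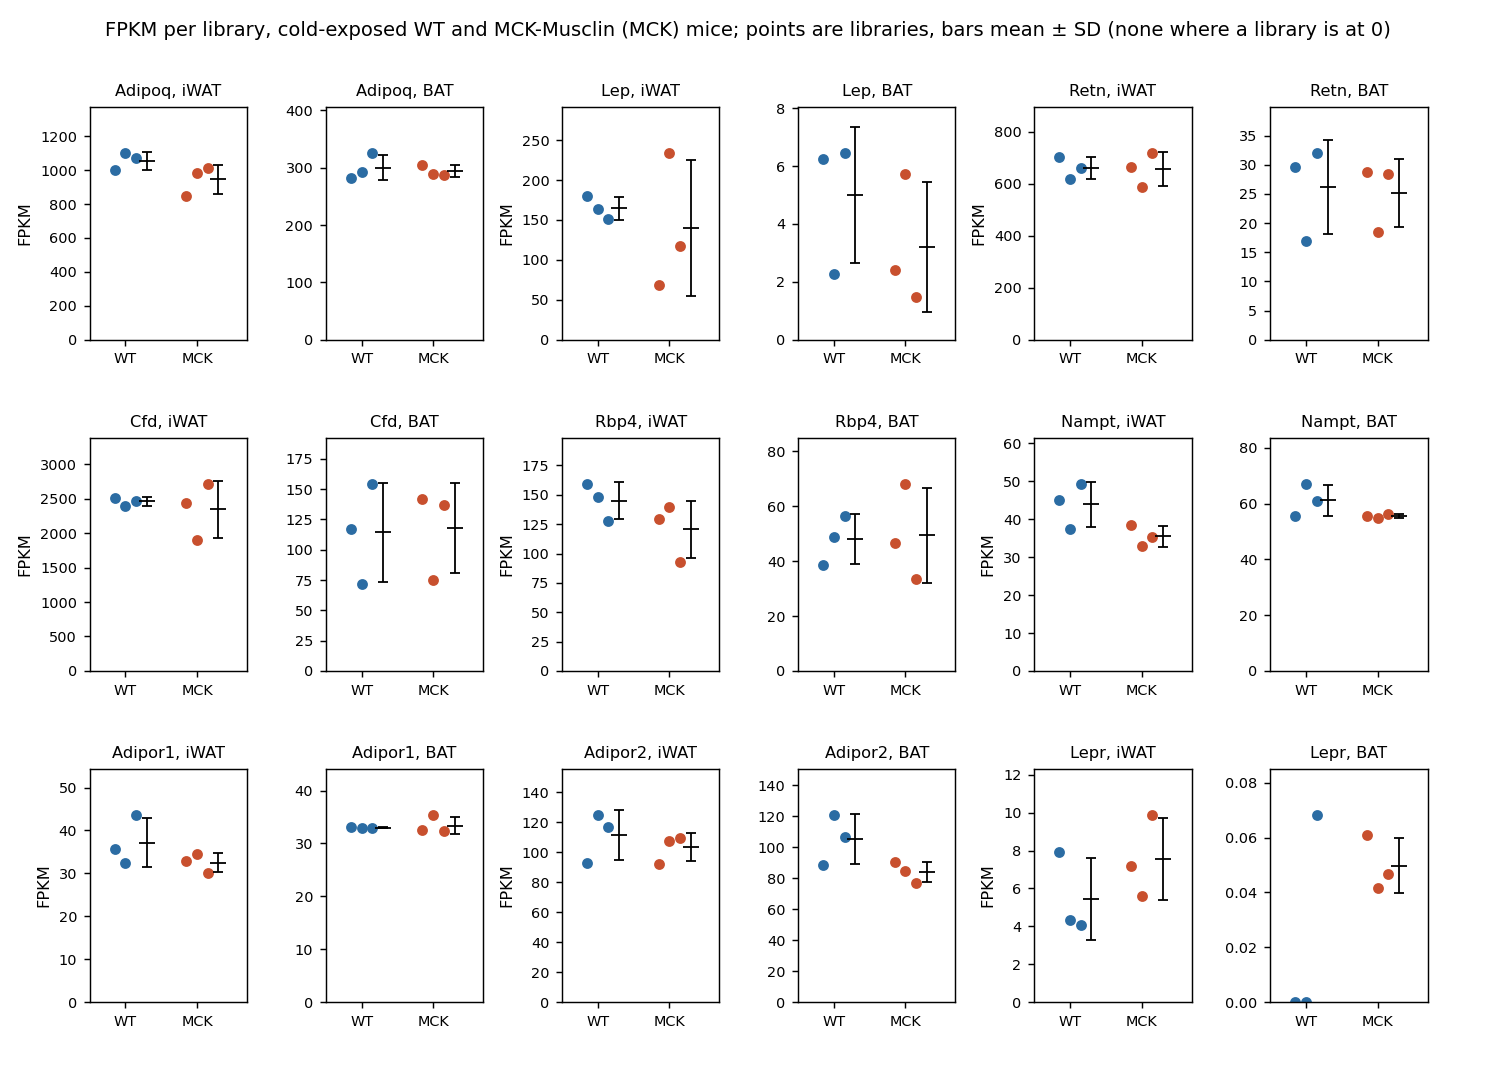
FPKM of each gene in the 3 WT (blue) and 3 MCK-Musclin (red) libraries of cold-exposed iWAT and BAT, each depot on its own axis from 0, with points from left to right for replicates 1 to 3 and bars for mean ± SD (left out where a library is at 0). The genotypes overlap in every panel where a test was made, and among those panels *Lep* spreads most within a genotype.

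Over all 9 members 8 had a lower fitted mean in MCK-Musclin iWAT, *Lepr* being the exception, and the median gene was at 0.06. This direction depends on the scaling, since 8 members were also lower with libraries rescaled to TPM or by median ratios, but 3 were lower and 6 higher when each library was centred on general adipocyte markers. General adipocyte markers had themselves a median log2 fold change of -0.26 in iWAT, with 15 of 18 lower and 1, *Gpd1*, past the cutoff, and their sum was between 14245 and 15064 in MCK-Musclin and between 16262 and 17508 in WT iWAT. Brown and beige fat markers were lower for 8 of 12 at the cutoff. Both this count and that of the general markers stand beside 0.902% of all genes lower at the cutoff. The brown and beige sums were 594, 930 and 1102 in WT and 665, 237 and 125 in MCK-Musclin iWAT. The sum of 665 was in replicate 1, the library with *Ostn* listed at 0. Skeletal muscle markers were lower in MCK-Musclin iWAT for 11 of 11, with 0 past the cutoff and a median log2 fold change of -2.15. Their sums were 11.1, 833 and 4668 in WT and 11.2, 161 and 191 in MCK-Musclin iWAT. The part of muscle RNA in the brown and beige values was not tested. In BAT 6 of the 8 members tested were lower, against a median gene at -0.01. No member passed the test for a difference between the genotype effects in iWAT and BAT, with the smallest unadjusted p for *Adipor1* (0.210, adjusted p = 0.688) in a limma interaction fit of 8 members, and 0% of 9757 genes had an adjusted p under 0.05 there, with 10.1% under 0.05 unadjusted.

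**Figure D5:**
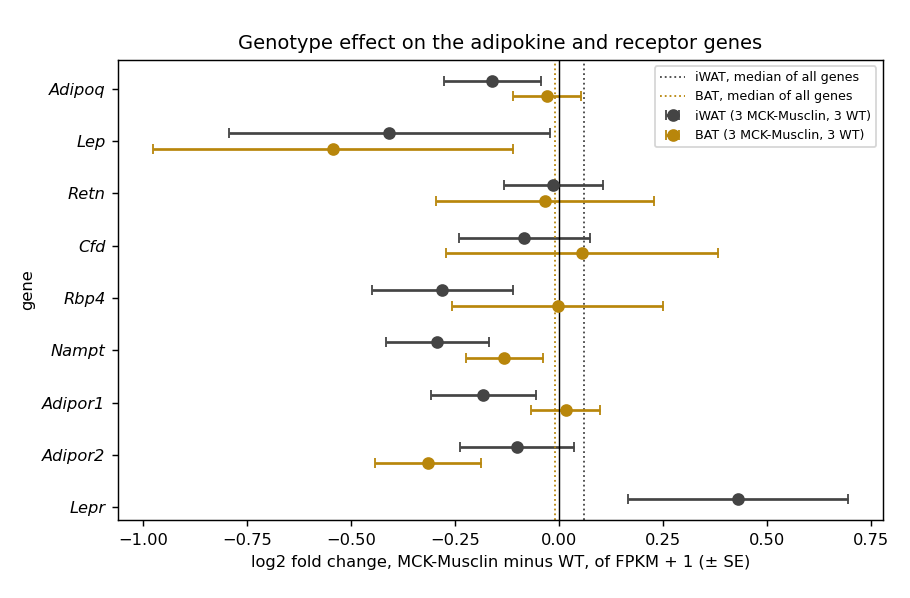
Log2 fold change (MCK-Musclin minus WT, FPKM + 1) of each gene in iWAT (grey) and BAT (gold), with SE as bars, 3 libraries per genotype, and dotted lines at the median of all genes. The values run from -0.54 (*Lep* in BAT) to 0.43 (*Lepr* in iWAT), *Lep* has the widest bars, and *Lepr* was not tested in BAT.

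Of 23 other adipose-secreted factors tested in iWAT, 2 rose at the cutoff, against 5.04% of all genes, *Angptl4*, an inhibitor of lipoprotein lipase, and *Ccl2*, a monocyte chemokine. *Angptl4* was at 14.5, 49.8 and 21.3 in WT and at 49.0, 58.5 and 41.7 in MCK-Musclin iWAT, a log2 fold change of 0.95 ± 0.40 with a limma adjusted p of 0.294. *Ccl2* was at 5.68, 4.50 and 4.35 in WT and at 6.04, 10.2 and 7.56 in MCK-Musclin iWAT, a log2 fold change of 0.59 ± 0.19 with an adjusted p of 0.197. The *Angptl4* groups overlapped and those of *Ccl2* did not, as for 23.3% of all genes. In leptin receptor signaling 1 of 12 genes rose at the cutoff, the adaptor *Grb2* (21.2 ± 2.37 in WT and 34.7 ± 9.22 in MCK-Musclin iWAT, SD, n = 3 each, limma adjusted p = 0.196). In adiponectin assembly and signaling 1 of 14 fell, against 0.902% of all genes, *Ppara*, which encodes a nuclear receptor that drives fatty acid oxidation, at 4.01 ± 1.29 in WT and 2.20 ± 0.955 in MCK-Musclin iWAT (limma adjusted p = 0.280).

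None of 12 receptors of other adipokines, 10 genes of retinol transport and metabolism, 11 of NAD synthesis and use, 7 of the alternative complement pathway and 11 adipogenic transcription factors passed the cutoff in iWAT. Of all genes tested in iWAT 5.94% passed it, so a count of 0 in lists this short says little. Their median log2 fold changes were 0.19, 0.08, 0.00, 0.20 and -0.13, beside 0.06 for all genes. In BAT no gene of these lists passed the cutoff, against 4% of all genes. Their BAT medians, in the same order, were -0.09, 0.20, 0.03, 0.14 and -0.08, over 7, 7, 11, 6 and 11 genes tested. None of the 12 other adipose-secreted factors, 11 leptin signaling genes or 14 adiponectin genes tested in BAT passed either. The medians of these were 0.03, 0.04 and 0.05, beside -0.01 for all genes. The lists were chosen with earlier results of these data known, and their counts are descriptions.

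*Lep*, *Retn*, *Cfd*, *Adipoq* and *Rbp4* stood higher in WT iWAT than in WT BAT, although the depots stand in separate tables, were extracted by different methods (a kit for iWAT, TRIzol for BAT) and were not tested against each other. The WT mean of *Lep* was 165 in iWAT and 4.99 in BAT, a ratio of 33.0 in FPKM and of 23.8 after both tables were rescaled to TPM over their 13750 shared genes. For *Retn* the ratio was 25.3 (18.2 rescaled) and for *Cfd* 21.5 (15.5 rescaled), while for *Adipoq* it was 3.51 (2.53) and for *Rbp4* 3.02 (2.18). *Nampt* was lower in iWAT than in BAT, at 0.718 times its FPKM there and 0.518 times after rescaling. *Adipor1* and *Adipor2* were within 1.13-fold and 1.06-fold in FPKM, and at 0.814 and 0.763 times the BAT level after rescaling, so which depot was higher depends on the scale.

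Ratios between adipokine transcripts also had other values in iWAT than in BAT, again without a test between the depots. In iWAT the ratio of *Adipoq* to *Lep* FPKM was 5.56, 6.74 and 7.07 in WT and 12.3, 4.20 and 8.63 in MCK-Musclin mice, and in BAT it was 45.3, 128 and 50.5 in WT and 126, 50.3 and 195 in MCK-Musclin mice. Both the highest and the lowest iWAT ratio were in MCK-Musclin libraries, and exact two-sided permutation tests gave p = 0.7 in iWAT and p = 0.5 in BAT. The ratio of *Cfd* to *Retn* was narrow, between 3.24 and 3.87 over the 6 iWAT libraries and between 3.95 and 4.95 over the 6 BAT libraries, with exact permutation p = 0.5 in each. In the WT tissues outside the cold experiment this ratio was 9.91 in white and 82.6 in brown adipose tissue.

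The brown adipose library of the 7 tissues and the cold-exposed WT BAT also differed in their adipokine transcripts. *Lep* was 14.7 times, *Cfd* 5.58 times and *Adipoq* 1.78 times as high in the former in FPKM, whereas *Rbp4* was 5.73 times and *Retn* 3.40 times as high in cold-exposed BAT. *Nampt* was within 1.03-fold and *Adipor2* within 1.05-fold. The 2 sets stand in separate tables, the first is 1 library with no treatment named, and its age is not given, so temperature, age and sequencing run cannot be told apart.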

How the data were processed

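Per the study's methods, fastp and Bowtie2 cleaned the reads and HISAT2 2.1.0 placed them on mm10 (GRCm38), and the authors deposited FPKM per gene and library from StringTie, while the submitters' processing notes also name Cuffdiff. Libraries came from a SMART kit, and no read counts were used here, so depth is unknown beyond relative values. From low FPKM steps, the depth relative to the first library of a table (heart, and WT replicate 1 in BAT) was 0.917 to 1.05 in the 7 tissues and 0.892 to 1.11 in BAT, and it was not determined in iWAT. The iWAT table as deposited by the authors further holds a log2 fold change, a p-value with FDR and mean normalized signals from DESeq2, and none of these was used. The filter behind the 13756 genes of the iWAT table is not stated, against 55487 in BAT and 55573 in the 7 tissues.

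Groups were compared within a table with limma 3.58.1 in R 4.3.3 (eBayes with an intensity trend) on log2(FPKM + 1) for genes whose FPKM averaged 1 or more, with Benjamini-Hochberg adjustment over all of them. Fold changes are therefore on the log2(FPKM + 1) scale, which understates changes of low genes. The study used DESeq2 on counts, which FPKM does not allow. The cutoffs are those of the study. A tissue by genotype term compared iWAT with BAT. That fit treated all iWAT and BAT libraries as independent, so a possible pairing of depots within a mouse was not modeled. Single values and ratios were compared by exact two-sided permutation tests in Python 3.11.15 with scipy 1.17.1, pandas 2.3.3, numpy 2.4.6 and matplotlib 3.10.9. Within-group variation is the root mean square of the SD over the mean of each genotype. The limma step was tested on simulated data.

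The members and gene lists were chosen with earlier results of these data known, and the ratios of members were chosen after values were seen. Named genes are the 9 members, *Leprot* and *Ostn*, genes of the lists past a cutoff or defining a cell type, and for each member the 3 genes with the highest Pearson correlation over the 7 tissues. Positions are from GENCODE (GRCm38), and promoter windows from RefSeq (GRCm38.p6), where all 9 members matched, with 12 start sites. Motifs were searched on both strands of the 250 bases before the start. Alternatives were other pseudocounts (0.1, 0.01), filters (none, 5 FPKM), TPM over shared genes, median-ratio scaling, centring on general adipocyte markers, eBayes without a trend or robust, the replicate number as a block, and leaving out each library.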

Additional observations from a re-analysis of the deposited data

How the results depend on the processing

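The 25 fold changes and interactions of the 9 genes were recomputed under 446 alternatives in all, of which 392 kept the direction and the side of the threshold, 42 turned the direction, 8 lost and 4 gained the call. Most turned values lay near 0, and the cause was not tested. Centring each library on general adipocyte markers moved the median gene in iWAT from 0.06 to 0.30, so values are best read against that shift. It turned iWAT Adipoq to 0.083, Retn to 0.23, Cfd to 0.16, Adipor1 to 0.06 and Adipor2 to 0.14, BAT Adipoq to 0.054, Retn to 0.049 and Rbp4 to 0.080, and the difference between the fat depots to 0.029 for Adipoq and 0.021 for Cfd. In iWAT, 2320 genes then passed the cutoff (1637 at an adjusted p under 0.05), with 1 of the adipokine and receptor genes, Lepr, and in BAT 0 of them. The share of iWAT calls that were higher was 84.8% as reported, 75.0% on TPM, 69.5% with median-ratio scaling and 98.9% with marker centring, and in BAT 46.3% and 81.9% with marker centring.

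TPM turned BAT Rbp4 to 0.014 and the depot difference of Retn to -0.051, and median-ratio scaling turned them to 0.0019 and -0.066. TPM, eBayes without a trend and the replicate block each left 0 of the genes past the cutoff in BAT. A minimum mean FPKM of 5 left 216 BAT genes past the cutoff against 436. Without a filter, 1 gene passed an adjusted p under 0.05 for the depot difference. In the 7 tissues, median-ratio scaling changed the ratio of the highest to the next tissue to 2.01 for Adipoq, 4.88 for Lep, 25.4 for Retn, 3.05 for Cfd, 18.8 for Rbp4, 1.2 for Lepr and 1.26 for Adipor2, whose highest tissue became liver in place of white adipose tissue. The highest tissue of Adipor1, TA muscle, led the next by 1.69-fold in FPKM and by 2.36-fold under median-ratio scaling, where the next was heart.

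Leaving out 1 library at a time gave 0 to 1 of the genes past the cutoff in iWAT (Lepr without WT replicate 1, Lep without MCK-Musclin replicate 2) and 0 to 1 in BAT (0 without WT replicate 2, WT replicate 3 or MCK-Musclin replicate 3, and Lep in place of Adipor2 without MCK-Musclin replicate 2). Over all genes, 0 to 86 iWAT genes passed an adjusted p under 0.05 (86 without WT replicate 1, 2 without MCK-Musclin replicate 2 and 1 without MCK-Musclin replicate 3), 1 to 4 BAT genes, and 0 to 8 for the depot difference (8 without iWAT MCK-Musclin replicate 1). The log2 fold changes in iWAT ran from -0.86 to 0.0096 for Lep, -0.080 to 0.065 for Retn and -0.19 to 0.062 for Cfd. In BAT they ran from -0.070 to 0.030 for Adipoq, -0.31 to 0.17 for Retn, -0.24 to 0.35 for Cfd, -0.26 to 0.24 for Rbp4, -0.023 to 0.040 for Adipor1 and -0.43 to -0.21 for Adipor2. The depot differences ran from -0.32 to 0.55 for Lep, -0.18 to 0.29 for Retn and -0.44 to 0.16 for Cfd.

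With the replicate block, 774 iWAT genes and 460 BAT genes passed the cutoff, with 0 of the adipokine and receptor genes in either fat. Deviations of same-numbered libraries correlated at 0.235, 0.0615 and 0.107 in iWAT and at -0.0951, -0.00463 and 0.00937 in BAT. In iWAT each library correlated best with its own number except MCK-Musclin replicate 2, at 0.0702 with WT replicate 3 against 0.0615. The labels name no pairing, and the main fit did not treat the libraries as paired, so a shared batch in iWAT was not modeled there. The tables give no read totals, so depth was unknown and limits the reading of low values such as those of Lepr in BAT.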
